A study of Homo sapiens with 18 samples.

Results

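The replication-dependent histone genes were followed in adrenocortical H295R cells on human gene expression arrays. Members were all probe sets whose current symbol begins with H2AC, H2BC, H3C or H4C and a number, or is one of the linker histones H1-1 to H1-6. This rule took 78 of the 29153 probe sets. They list 72 symbols, of which 70 are coding genes and 2 are pseudogenes, and these include each of the 70 coding genes that RefSeq names by the same rule. Of the 78 probe sets, 58 list 1 symbol and 20 list several, since many histone genes are close copies of each other and share probes. Of these 20, 4 also list a symbol outside the rule, and 1 probe set lists only the pseudogene H2BC19P. By family there were 6 probe sets for H1, 16 for H2A, 23 for H2B, 13 for H3 and 17 for H4, and 3 more spanned more than 1 family. The genes lie on chromosome 6 for 55 probe sets, chromosome 1 for 21 and chromosome 12 for H4C16, and 1 probe set lists genes on chromosomes 21 and 6. The values of 4 pairs of probe sets were identical in every array, so the 78 hold 74 distinct measurements.

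Replication-dependent histones package newly made DNA, and their genes are switched on as cells enter S phase by NPAT, a coactivator that works in histone locus bodies. Their mRNAs end in a stem-loop in place of a poly(A) tail. The stem-loop is bound by SLBP and cut with the help of the U7 small nuclear ribonucleoprotein, and the mRNAs are degraded when DNA synthesis stops. H2A, H2B, H3 and H4 form the nucleosome core, and H1 binds the linker DNA between cores.

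H295R is an established line from an adrenocortical carcinoma. The 17 arrays came from 2 stable lines, one carrying pcDNA4 with GRα (the ligand-binding glucocorticoid receptor isoform, gene NR3C1) and the other pcDNA4 with no insert, both described as non-inducible and grown with Zeocin. Each line is 1 stable line, so the receptor and any other difference between the lines cannot be told apart. Cells at 70% confluence were starved of serum for 24 h, which the controls share, and then received 100 nM dexamethasone (an agonist), 100 nM RU486 (mifepristone, an antagonist or partial agonist) or ethanol vehicle for 6 h. Values were available for 3 GRα dexamethasone, 2 GRα RU486, 3 GRα vehicle, 3 control dexamethasone, 3 control RU486 and 3 control vehicle arrays, lettered A to C. The array of GRα RU486 replicate A failed quality control, per the labels. Labelled cDNA was primed by random hexamers on 100 ng of total RNA, so RNAs without a poly(A) tail entered the measurement.

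The values are log2 array signals. NR3C1 lay between 7.90 and 8.11 in the 8 GRα arrays and between 7.23 and 7.46 in the 9 control arrays. The adrenocortical genes CYP11A1 (mean log2 value 10.18), STAR (9.93) and NR5A1 (8.68) had high signal, while HSD3B2 (6.37) and MC2R (5.455) were lower. The leukocyte gene PTPRC (3.81), the fibroblast genes LUM (3.56) and DCN (4.03) and the endothelial gene PECAM1 (4.98) were low. The leukocyte genes CD68 (6.22) and CD14 (6.07) and the endothelial gene CDH5 (5.73) had more signal, closer to the median of 6.32 over all probe sets. The fibroblast genes COL1A1 and COL3A1 had 7.36 and 7.08. The chromaffin gene CHGB differed between the lines, with group means of 9.115 to 9.189 in GRα cells and 6.161 to 6.200 in control cells. In vehicle 5 of 8 adrenocortical genes were lower in GRα cells and 1 higher (limma adjusted p under 0.05). Of the 5 chromaffin genes CHGB and CHGA were higher there, and TH, DBH and PNMT did not pass this threshold. Of all probe sets 26.2% passed this threshold. HSD3B2 (−1.59), SULT2A1 (−1.09) and STAR (−0.905) differed most of the 8 on the log2 scale. Mean values of the histone probe sets ran from 4.08 to 11.75 with a median of 8.20, against a median of 6.32 over all probe sets, and 67 of the 78 lay above it. A level is not comparable between probe sets, so only differences between arrays are compared for each of them. The probe sets of the testis-type genes H2BC1, H2AC1 and H1-6 had mean log2 values of 4.08, 4.76 and 5.35.

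One array, GRα vehicle replicate B, stood apart in its histone signal. Over the 78 probe sets its median difference from the mean of replicates A and C was 0.586 on the log2 scale, against −0.006 over all probe sets. It lay above that mean for 75 of the 78, and for 45 of them (57.7%) by more than 0.5, against 3.14% of all probe sets. In 61 of the 78 it was the highest of the 17 arrays, which held for 16.1% of all probe sets. The same measure for the other 16 arrays, each set against the rest of its group, had histone medians between −0.285 and 0.133. The 2 lowest, −0.285 and −0.24, belong to GRα vehicle C and A, which were set against means that include B. The lowest in the other groups was −0.199, in control vehicle C. limma's array weight, estimated over all probe sets, was 0.209 for this array and between 0.729 and 2.10 for the others. The share of all probe sets above 0.5 was 3.14% in this array and between 0.254% and 1.05% in the others, so it stood apart beyond the histones too.

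**Figure D1:**
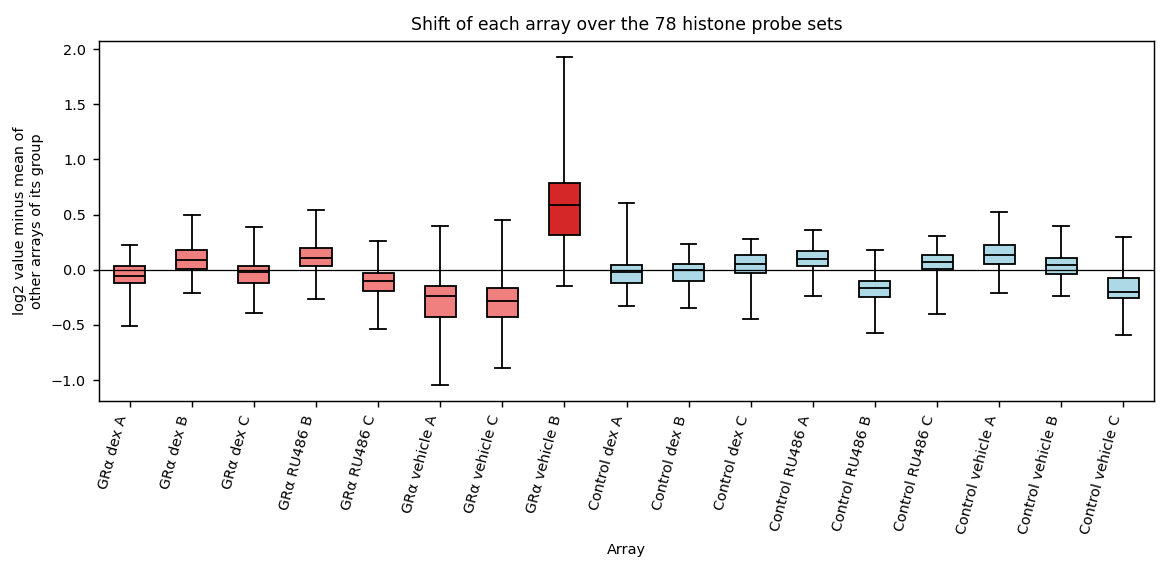
Box plots of the log2 value of each array minus the mean of the other arrays of its group over the 78 histone probe sets. Boxes span the quartiles with the median as a line, whiskers reach the lowest and highest probe set, and GRα vehicle B (dark red, median 0.586) lies above the other GRα arrays (light red) and the control arrays (blue).

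The excess in that array was uneven among the genes. H4C6, an H4 gene, had a log2 value of 9.78 in replicate B, against 7.80 in A and 7.90 in C. H3C1, an H3.1 gene, had 8.78 in B, against 7.07 in A and 7.15 in C, and the H4 gene H4C4 had 8.58 in B, against 6.90 in A and 6.98 in C. In each of these genes A and C lay close together and B stood alone. The difference of B from the mean of A and C was also above 1 for H3C7 (1.55), H2AC4 (1.54), H2AC15 (1.43), H2BC3 (1.38), H3C12 (1.21), H3C11 (1.19), H1-3 (1.14), H3C2 (1.12), a probe set of H4C11 and H4C12 (1.05) and H2BC10 (1.02). At the other end stood H1-6 (−0.15), H2BC26 (−0.12), the linker histone gene H1-2 (−0.05) and H2BC12 (0.06). The family medians were 0.783 for H3, 0.587 for H2A, 0.474 for H4, 0.426 for H1 and 0.409 for H2B.

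Other gene groups were set beside this shift. Of 12 genes for replication-independent histones, which are made throughout the cell cycle with polyadenylated mRNAs, 0 exceeded 0.5 (median 0.136), as did 0 of 21 genes for histone transcription and pre-mRNA processing (0.044) and 0 of 20 for histone chaperones (−0.083). Of 31 S phase genes 1 exceeded 0.5 (median 0.118). Among 211 probe sets for small nuclear, small nucleolar and other RNAs without poly(A), 38 exceeded 0.5 (18%), with a median of 0.050. The part of RNA preparation, labelling or cell cycle phase in the histone signal of replicate B was not tested. With all arrays the median SD of the histone probe sets within a group was 0.345 in GRα vehicle, and 0.075 to 0.144 in the other groups. Over all probe sets the median SD was 0.129 in GRα vehicle, and 0.072 to 0.098 in the other groups. Since every comparison shares 1 estimate of spread per probe set, the counts of called members and the vehicle differences of the named members are given with and without replicate B.

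The comparisons of the lines ask how GRα cells differ from control cells in the same treatment. They share no arrays, though they share the estimate of spread. A probe set was called at a limma Benjamini-Hochberg adjusted p under 0.05 over all 29153 probe sets, and a positive log2 fold change means higher in GRα cells. Histone genes differed in both directions. In vehicle 16 histone probe sets were higher and 7 lower in GRα cells, where 26.2% of all probe sets were called (11.9% higher and 14.3% lower). Under dexamethasone 8 were higher and 25 lower, where 26.4% of all probe sets were called (12.8% higher and 13.6% lower). Under RU486 15 were higher and 7 lower, where 22.5% of all probe sets were called (10.5% higher and 12% lower). In shares, 29.5%, 42.3% and 28.2% of the histone probe sets were called in vehicle, dexamethasone and RU486. All GRα arrays lay above all control arrays for 18 histone probe sets in vehicle and below for 5 (35.6% of all probe sets were free of overlap). These counts were 15 and 41 under dexamethasone (40.3%), and 22 and 22 under RU486 with 2 GRα arrays (50.2%). The median log2 fold changes of the 78 were −0.04 in vehicle, −0.26 under dexamethasone and −0.07 under RU486, against 0.01, −0.01 and 0.00 over all probe sets.

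Replicate B moved the vehicle comparison most. Without it 12 histone probe sets were higher and 35 lower in vehicle-treated GRα cells, where 27.1% of all probe sets were called, and the median became −0.25. Of the 23 calls, 19 were made both with and without this array, and H2AC11, H2AC6, H3C8 and H4C9, all higher, were called only with it. The dexamethasone and RU486 comparisons hold no vehicle array, so only their spread changed. Without B they gave 10 higher and 37 lower under dexamethasone (29.9% of all probe sets called), and 17 higher and 15 lower under RU486 (26.5%). With all arrays, 7 probe sets were called higher in each treatment, namely H1-2, H2BC21, H2BC5, H2BC11, H4C8 and the identical pair for H4C15/H4C14. Those called lower in each treatment were the 5 of H1-5, H1-1, H1-3, H2BC6 and H3C11. Together they are 15.4% of the 78, and 16.7% of all probe sets were called the same way in each treatment. No histone probe set was called in opposite directions (0 of 78, against 21 of all 29153). The probe sets that list H4C15 alone and H4C14 alone, also an identical pair, did not show the rise of the H4C15/H4C14 pair. Their log2 fold changes were −0.09 in vehicle, −0.03 under dexamethasone and 0.10 under RU486, none of them called.

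**Figure D2:**
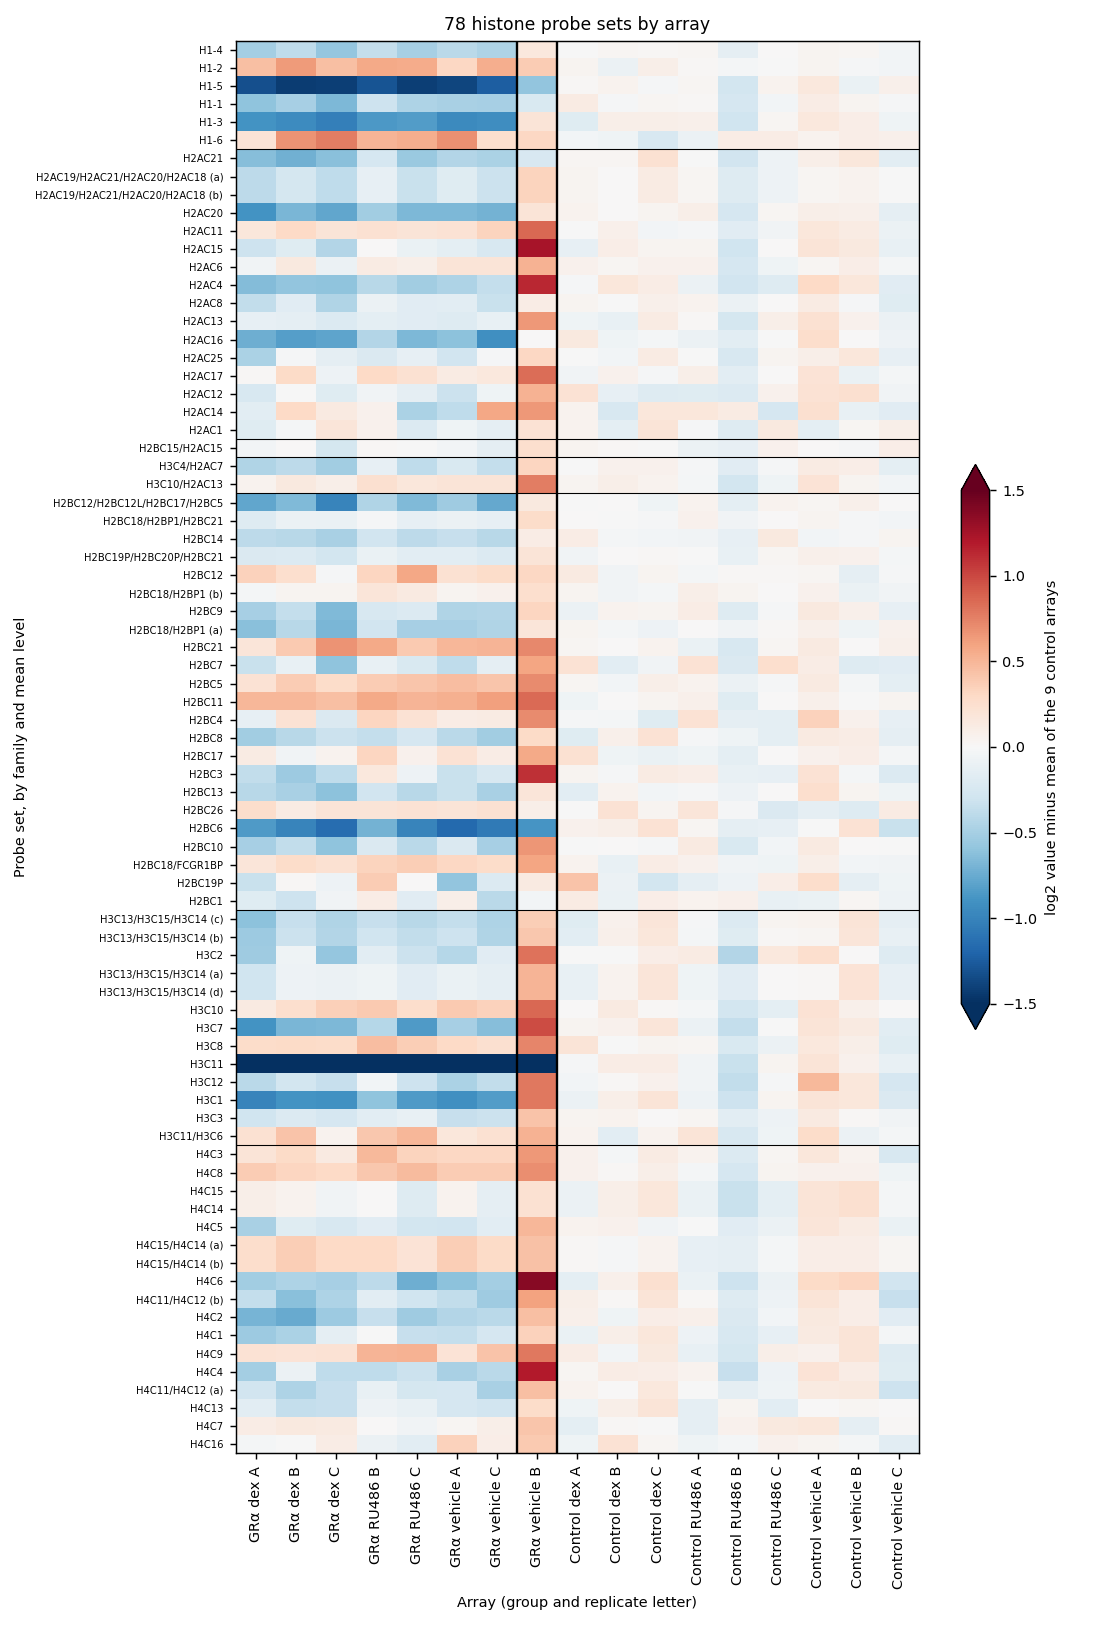
Heat map of the 78 histone probe sets (rows, by family) in the 17 arrays (columns), coloured by the log2 value minus the mean of the 9 control arrays, with GRα vehicle B framed. The colours end at −1.5 and 1.5, which the dark H3C11 row exceeds in the GRα arrays, and 61 of the 78 rows have their highest value in the framed column.

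H3C11, which encodes histone H3.1, had the greatest difference of the members in each treatment. Under dexamethasone its log2 values were 6.278, 6.424 and 6.358 in GRα cells, against 9.47, 9.60 and 9.60 in control cells. Under RU486 they were 6.58 and 6.62 in GRα cells, against 9.43, 9.15 and 9.53 in control cells. In vehicle they were 6.31, 7.60 and 6.51 in GRα cells, against 9.69, 9.55 and 9.38 in control cells. Every GRα array lay below every control array, replicate B of vehicle being the highest of the GRα arrays. The gene was 9.20-fold lower under dexamethasone (log2 −3.20 ± 0.22 SE, limma adjusted p = 1.533e-08), 6.85-fold lower under RU486 (−2.78 ± 0.25, 3.944e-07) and 6.64-fold lower in vehicle (−2.73 ± 0.22, 9.808e-08), where the difference without B was −3.13. A second probe set, shared by H3C11 and H3C6, did not show this. Its log2 fold changes were 0.26 under dexamethasone and 0.26 in vehicle (0.15 without B), none of them called, and 0.48 under RU486 (limma adjusted p = 0.02355), a call kept in 1 of 5 fits without 1 array. Since H3C6 signal enters that probe set, the H3C11 difference rests on 1 probe set.

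Among the linker histones H1-5, H1-3 and H1-1 were lower and H1-2 was higher in GRα cells in each treatment. H1-5 had log2 values of 8.33, 8.22 and 8.24 with dexamethasone in GRα cells, against 9.67, 9.70 and 9.63 in control cells. With RU486 it had 8.35 and 8.23 in GRα cells, against 9.68, 9.38 and 9.70 in control cells. With vehicle it had 8.28, 9.06 and 8.41 in GRα cells, against 9.81, 9.54 and 9.72 in control cells, so the lines did not overlap even with replicate B. Its log2 fold changes were −1.40 ± 0.15 SE under dexamethasone, −1.29 ± 0.17 under RU486 and −1.11 ± 0.15 in vehicle (limma adjusted p = 1.911e-06, 2.053e-05 and 2.627e-05), and −1.35 in vehicle without B. H1-2 had 10.10, 10.28 and 10.10 with dexamethasone in GRα cells, against 9.69, 9.56 and 9.73 in control cells. With RU486 H1-2 had 10.22 and 10.21 in GRα cells, against 9.67, 9.62 and 9.64 in control cells. With vehicle H1-2 had 9.96, 10.02 and 10.19 in GRα cells, against 9.69, 9.63 and 9.60 in control cells. It was 0.50 ± 0.07 SE higher under dexamethasone, 0.57 ± 0.08 under RU486 and 0.42 ± 0.07 in vehicle on the log2 scale (limma adjusted p = 6.551e-05, 6.276e-05 and 0.0003844). Replicate B was the middle one of the GRα vehicle arrays for this gene, and the vehicle difference without it was 0.44.

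Of the linker histones H1-3 had the greatest excess in replicate B (1.14), followed by H1-5 (0.71) and H1-4 (0.59). H1-3 had 6.99, 8.14 and 7.02 in GRα vehicle arrays, against 8.11, 8.05 and 7.89 in control vehicle arrays, so B alone overlapped with the controls. Its log2 fold changes were −0.96 ± 0.21 SE under dexamethasone, −0.78 ± 0.24 under RU486 and −0.63 ± 0.21 in vehicle, or −1.01 in vehicle without B. The vehicle call was kept in 1 of 6 fits that left out 1 array of these groups and the RU486 call in 1 of 5, with limma adjusted p-values up to 0.1746 and 0.119. With all arrays the vehicle call was also lost when only the groups compared were fitted, after quantile normalization once more and with trend and robust eBayes. H1-4 was lower under dexamethasone (−0.51 ± 0.12) and RU486 (−0.40 ± 0.13), while in vehicle it had −0.25 ± 0.12 with B and −0.45 without it. H1-1 had −0.64 ± 0.09 SE under dexamethasone, −0.30 ± 0.10 under RU486 and −0.45 ± 0.09 in vehicle, or −0.54 in vehicle without B. The RU486 calls of H1-4 and H1-1 were each kept in 1 of 5 fits without 1 array. That of H1-1 was also lost with the replicate letter as a block, after median centring, after quantile normalization once more and when only the groups compared were fitted. H1-6, the testis-type H1, was higher under dexamethasone (0.66 ± 0.13) and RU486 (0.49 ± 0.14), from a low signal of 4.88 to 5.88 in every array, and its RU486 call was kept in 2 of 5 fits without 1 array.

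To show the DNA in front of genes that differed in opposite directions, the 150 bases before the start site are printed for H1-5 and H1-2, and for H2BC6 and H2BC11 of the H2B family. They come from RefSeq on GRCh38.p14, read 5′ to 3′ on the strand of the gene. Promoters of 64 of the 72 listed symbols were found in the RefSeq table used, and those not found were H2AC12, H2BC12L, H2BC19P, H2BC20P, H3C11, H3C12, H4C1 and H4C3. The letters searched on both strands were CCAAT (the CCAAT box), TATAA (the TATA box), ATTTGCAT (the octamer of H2A and H2B genes) and AAACACA (the AC box of H1 genes). Capitals mark every match, in either orientation, and in H1-5 a forward and a reverse TATAA overlap. H1-5 lies on the minus strand at chr6:27867589-27867738, H1-2 on the minus strand at chr6:26056471-26056620, H2BC6 on the plus strand at chr6:26183611-26183760 and H2BC11 on the minus strand at chr6:27132796-27132945.
H1-5: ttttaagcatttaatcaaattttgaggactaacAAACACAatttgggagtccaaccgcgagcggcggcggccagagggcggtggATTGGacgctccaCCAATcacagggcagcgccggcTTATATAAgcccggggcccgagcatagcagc
H1-2: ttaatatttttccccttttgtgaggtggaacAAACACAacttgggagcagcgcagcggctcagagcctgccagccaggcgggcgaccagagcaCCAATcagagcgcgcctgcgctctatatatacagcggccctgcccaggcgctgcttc
H2BC6: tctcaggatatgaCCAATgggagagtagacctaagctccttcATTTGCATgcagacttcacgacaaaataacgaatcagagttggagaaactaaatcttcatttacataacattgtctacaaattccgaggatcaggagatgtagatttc
H2BC11: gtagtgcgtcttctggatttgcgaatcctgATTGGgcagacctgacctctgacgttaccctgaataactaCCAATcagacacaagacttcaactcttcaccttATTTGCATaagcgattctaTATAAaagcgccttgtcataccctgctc

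Counted to its base farthest from the start, the AC box begins 117 bases before the start of H1-5 and 119 before that of H1-2. The CCAAT box on the forward strand begins 53 bases before the start of H1-5 and 57 before that of H1-2. The octamer begins 108 bases before the start of H2BC6 and 47 before that of H2BC11. Within 250 bases upstream, AAACACA was present in 6 of 6 H1 genes and in 0 of the 58 other histone genes in the table, against 5.95% of all 27305 genes with a promoter in it. ATTTGCAT was present in 11 of 16 H2A, 14 of 18 H2B, 1 of 11 H3, 0 of 6 H1 and 0 of 13 H4 genes, against 2.03% of all genes. CCAAT was present in all H1, H2A, H2B and H3 genes of the table and in 3 of 13 H4 genes, against 37.0% of all genes, and TATAA in 59 of 64 histone genes, against 22.5% of all genes. In the printed stretches TATAA was found for H1-5 and H2BC11 and not for H1-2 and H2BC6, and each of the 4 held CCAAT. Only exact letters were counted, so other forms, such as tatatata in the H1-2 stretch, were not. A match describes the sequence only and is no evidence of a bound site.

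In the H2B family H2BC6 was lower and H2BC11, H2BC21 and H2BC5 were higher in GRα cells in each treatment. H2BC6 had log2 values of 5.87, 5.74 and 5.59 with dexamethasone in GRα cells, against 6.78, 6.81 and 6.94 in control cells. With RU486 it had 6.02 and 5.73 in GRα cells, against 6.75, 6.58 and 6.60 in control cells. With vehicle it had 5.56, 5.84 and 5.66 in GRα cells, against 6.72, 6.95 and 6.39 in control cells. All GRα arrays were below all control arrays, and replicate B lay within the range of the other GRα arrays. The log2 fold changes of H2BC6 were −1.11 ± 0.12 SE under dexamethasone, −0.77 ± 0.14 under RU486 and −0.999 ± 0.124 in vehicle (limma adjusted p = 3.545e-06, 0.0006028 and 1.231e-05), and −1.07 in vehicle without B. H2BC11 had 8.03, 8.04 and 7.99 with dexamethasone in GRα cells, against 7.48, 7.54 and 7.57 in control cells. With RU486 H2BC11 had 8.11 and 8.04 in GRα cells, against 7.61, 7.36 and 7.55 in control cells. With vehicle H2BC11 had 8.07, 8.39 and 8.16 in GRα cells, against 7.61, 7.54 and 7.58 in control cells. These groups did not overlap, and the differences were 0.49 ± 0.08, 0.57 ± 0.09 and 0.63 ± 0.08 under dexamethasone, under RU486 and in vehicle (limma adjusted p = 0.0002025, 0.0001662 and 1.606e-05), with 0.54 in vehicle without B.

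H2BC21 was higher by 0.39 ± 0.11 SE under dexamethasone, 0.58 ± 0.12 under RU486 and 0.50 ± 0.11 in vehicle on the log2 scale (0.43 in vehicle without B), its dexamethasone call being lost without GRα dexamethasone replicate C. H2BC5 was higher by 0.26 ± 0.09, 0.42 ± 0.10 and 0.55 ± 0.09 (0.455 in vehicle without B), its dexamethasone call being kept in 2 of 6 fits without 1 array. H2BC12 was higher under RU486 (0.45 ± 0.10), a call lost without GRα RU486 replicate C, and in vehicle (0.31 ± 0.09, or 0.29 without B). The probe set shared by H2BC12, H2BC12L, H2BC17 and H2BC5 went the other way, with −0.79 ± 0.16 under dexamethasone and −0.54 ± 0.18 under RU486, both called, and −0.42 ± 0.16 in vehicle, which was not called with B but was without it (−0.69). Its RU486 call was kept in 1 of 5 fits without 1 array, with limma adjusted p-values up to 0.2635, and was lost with trend and robust eBayes. Under dexamethasone the probe sets that list H2BC21 beside other genes had −0.12 (with H2BC18 and H2BP1) and −0.23 (with H2BC19P and H2BC20P). Neither was called with all arrays, and the latter was called without B. Signals of shared probe sets cannot be divided among their genes. Under dexamethasone H2BC14, H2BC9, H2BC8, H2BC13 and a probe set of H2BC18 and H2BP1 were also lower, by 0.44 to 0.56. Another probe set of H2BC18 and H2BP1 had 0.03 and was not called. The probe set of H2BC18 and FCGR1BP had 0.205 under dexamethasone, called only without B. It was called higher under RU486 (0.365) and in vehicle (0.394, or 0.297 without B).

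Of the 16 H2A probe sets, 6 were lower and 0 higher under dexamethasone, and 2 were lower and 2 higher in vehicle. Under RU486 0 were called by limma. Of all probe sets 26.4% were called under dexamethasone, 26.2% in vehicle and 22.5% under RU486, so the vehicle count was near the share of all. Without replicate B, 8 were lower and 1 higher under dexamethasone, 6 lower and 0 higher in vehicle, and 2 lower and 1 higher under RU486. The shares of all probe sets were then 29.9%, 27.1% and 26.5%. H2AC20 had 9.10, 9.31 and 9.22 with dexamethasone in GRα cells, against 10.054, 10.001 and 10.042 in control cells, a log2 fold change of −0.82 ± 0.18 SE. H2AC21 had 10.01, 9.93 and 10.02 with dexamethasone in GRα cells, against 10.68, 10.68 and 10.87 in control cells (−0.76 ± 0.11), and was also lower in vehicle (−0.42 ± 0.11, or −0.49 without B). H2AC16 was lower under dexamethasone (−0.80 ± 0.16) and in vehicle (−0.57 ± 0.16, or −0.83 without B), where the call was kept in 3 of 6 fits without 1 array. The arrays of the lines did not overlap for H2AC20, H2AC21 or H2AC16 under dexamethasone. The higher calls in vehicle that were lost without B were those of H2AC11 (0.41 ± 0.12 with B and 0.21 without it) and H2AC6 (0.27 ± 0.10 with B and 0.16 without it).

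Of the 13 H3 probe sets, H3C11 included, 5 were lower and 0 higher under dexamethasone. Under RU486 1 was lower and 3 higher, and in vehicle 1 was lower and 2 higher. Of all probe sets 26.4% were called under dexamethasone, 22.5% under RU486 and 26.2% in vehicle, so the vehicle count was near the share of all. Without replicate B, 6 were lower and 0 higher under dexamethasone, 3 lower and 3 higher under RU486, and 7 lower and 1 higher in vehicle. The shares of all probe sets were then 29.9%, 26.5% and 27.1%. H3C1 had 6.999, 7.091 and 7.078 with dexamethasone in GRα cells, against 7.90, 8.07 and 8.18 in control cells, a log2 fold change of −0.99 ± 0.30 SE. In vehicle H3C1 had 7.07, 8.78 and 7.15 in GRα cells, against 8.19, 8.16 and 7.77 in control cells, with −0.37 including B and −0.93 without it. Replicate B alone lay above the control arrays. The dexamethasone calls of H3C1 and H3C7 (−0.85 ± 0.29) were kept in 2 of 6 and 0 of 6 fits without 1 array, in which their log2 fold changes ran from −1.07 to −0.93 and from −0.89 to −0.78. Both calls were also lost with trend and robust eBayes. A probe set for the H3.2 genes H3C13, H3C14 and H3C15 was lower under dexamethasone (−0.50 ± 0.17), with −0.32 under RU486, which was not called. In vehicle it had −0.19 with B, which was not called, and −0.45 without B, which was (limma adjusted p = 0.01062). H3C10 and H3C8 were higher under RU486 (0.48 ± 0.13 and 0.51 ± 0.13), calls kept in 3 of 5 and 4 of 5 fits without 1 array. In vehicle they were higher with all arrays (0.43 ± 0.12 and 0.40 ± 0.12). Without B these differences were 0.27 and 0.25, and the call was kept for H3C10 (limma adjusted p = 0.04051) and lost for H3C8 (0.07694).

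Most H4 genes encode one and the same protein, H4C7 being a divergent copy. Of the 17 H4 probe sets, 3 were higher and 2 lower under dexamethasone. Under RU486 5 were higher and 0 lower, and in vehicle 6 were higher and 0 lower. Of all probe sets 26.4% were called under dexamethasone, 22.5% under RU486 and 26.2% in vehicle, so the dexamethasone count was near the share of all. H4C8 had 10.05, 9.99 and 9.97 with dexamethasone in GRα cells, against 9.74, 9.69 and 9.76 in control cells. With RU486 H4C8 had 10.08 and 10.14 in GRα cells, against 9.64, 9.42 and 9.71 in control cells. With vehicle H4C8 had 10.05, 10.36 and 10.05 in GRα cells, against 9.74, 9.73 and 9.61 in control cells. The groups did not overlap, and the log2 fold changes were 0.27 ± 0.09 SE under dexamethasone, 0.52 ± 0.10 under RU486 and 0.46 ± 0.09 in vehicle (0.36 without B). The dexamethasone call of H4C8 was kept in 0 of 6 fits without 1 array, with log2 fold changes of 0.25 to 0.29 and a limma adjusted p up to 0.09512. H4C3 and H4C9 were higher under RU486 (0.45 ± 0.13 and 0.61 ± 0.14) and in vehicle (0.43 ± 0.11 and 0.46 ± 0.13). In vehicle without B they had 0.31 and 0.30, the call of H4C9 being lost, and without control vehicle replicate C both calls were lost. H4C2 and H4C13 were lower under dexamethasone (−0.70 ± 0.18 and −0.36 ± 0.12). Without replicate B, 8 of 17 H4 probe sets were lower and 3 higher under dexamethasone (29.9% of all probe sets called). Under RU486 1 was then lower and 5 higher (26.5%). In vehicle without B 8 were lower and 5 higher, where 27.1% of all probe sets were called. Among the lower ones were H4C6 (−0.67) and H4C4 (−0.49), which had −0.03 and 0.05 with B.

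**Figure D3:**
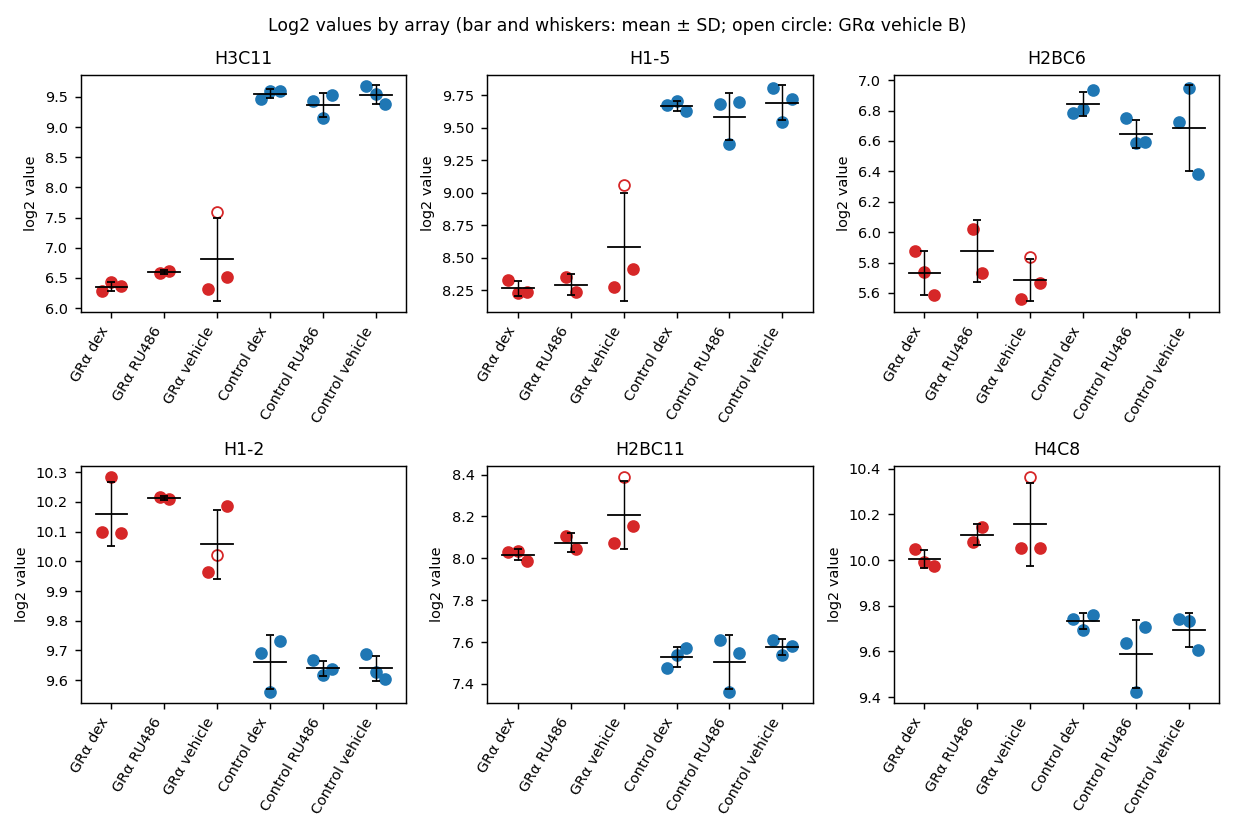
Log2 values of H3C11, H1-5 and H2BC6 (lower in GRα cells) and of H1-2, H2BC11 and H4C8 (higher) by group, 1 point per array, with GRα arrays in red and control arrays in blue. Bars are means and whiskers SD (n = 3, or 2 for GRα RU486), and the open circle is GRα vehicle B, which for H3C11 stood at 7.60, against 6.31 and 6.51 in the other vehicle arrays.

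The 49 histone genes with a probe set of their own on chromosome 6 were set in their RefSeq order, without coordinates. H2AC16, H1-5 and H3C11 follow each other in this order and all were lower in GRα cells in vehicle and under dexamethasone. The next genes after H3C11 were much closer to 0, with log2 fold changes of −0.36 under dexamethasone, −0.01 under RU486 and −0.10 in vehicle for H4C13, and −0.35, −0.03 and −0.15 for H3C12. In vehicle without B these genes had −0.28 and −0.56, both called. H4C8, H2BC11, H2AC11, H2BC12 and H4C9 also follow each other, and all had positive values in each treatment. Under dexamethasone only H4C8 and H2BC11 of these were called, and under RU486 all but H2AC11. All were called in vehicle, H2AC11 and H4C9 not without B. Both runs were picked after the values were seen, and the order does not give the distance between genes. Of the 78 probe sets 22 were positive and 36 negative in each treatment, against 8801 and 8839 of all 29153.

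**Figure D4:**
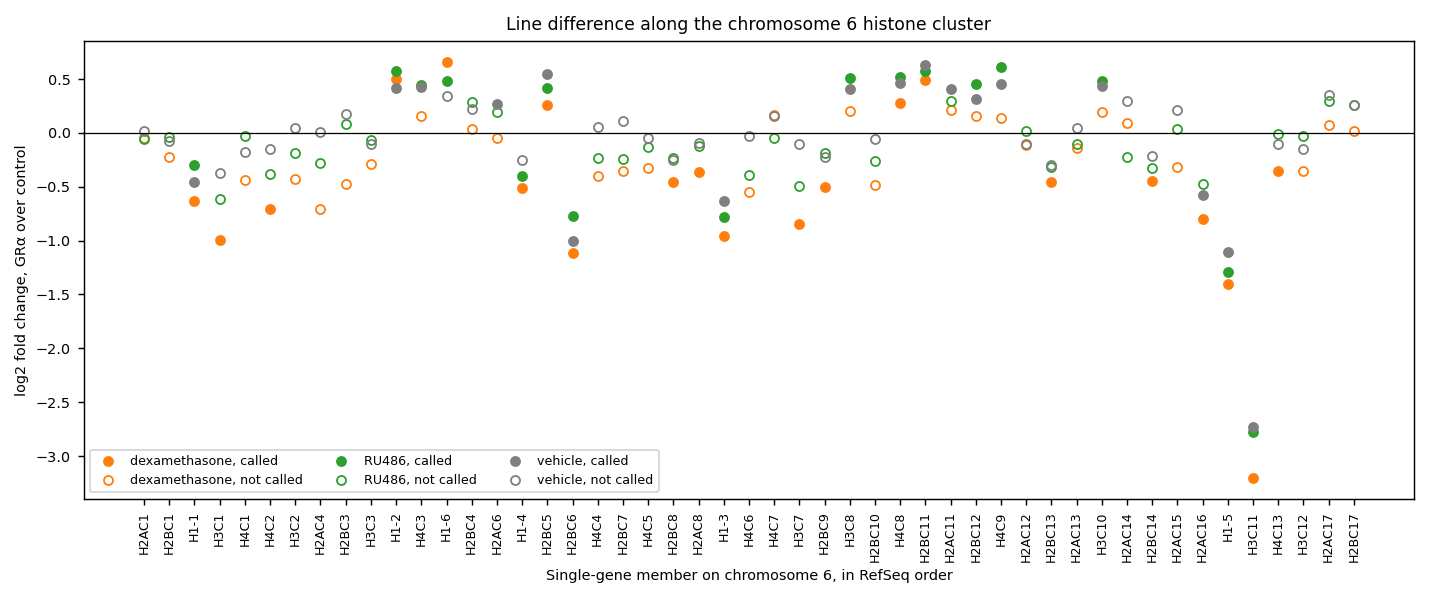
Log2 fold change of GRα over control cells for the 49 single-gene members on chromosome 6 in RefSeq gene order, 3 points per gene for dexamethasone (orange), RU486 (green) and vehicle (grey). Filled points were called by limma, and H3C11 lies lowest at −3.20, −2.78 and −2.73, next to H1-5.

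Across the 74 distinct measurements the line difference under dexamethasone followed that under RU486 (Pearson r = 0.96, Spearman rho = 0.92). Over all probe sets the coefficients were 0.89 and 0.74. The points share probes among close copies and the same arrays. The excess in GRα vehicle replicate B ran opposite to the line difference measured in arrays that do not include it. Across the 74 its correlation with the line difference was −0.54 (rho −0.65) under dexamethasone and −0.47 (rho −0.58) under RU486, against −0.15 (rho −0.14) and −0.09 (rho −0.07) over all probe sets. Histone genes that were lower in GRα cells than in control cells thus tended to have more excess signal in that one array. With the excess of control vehicle replicate A over the other control vehicle arrays the correlation was 0.49 (rho 0.48), against 0.04 (rho 0.02) over all probe sets. With the excess of GRα dexamethasone replicate B over the other arrays of its group it was 0.11 (rho 0.14), against −0.02 (rho −0.02) over all probe sets.

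Other gene groups of the pathway were compared between the lines in the same fit, in which 26.4% of all probe sets were called under dexamethasone, 22.5% under RU486 and 26.2% in vehicle. SLBP, which binds the stem-loop, was lower in GRα cells by 0.35 to 0.38 on the log2 scale (limma adjusted p = 0.001871 under dexamethasone, 0.002959 under RU486 and 0.00142 in vehicle). NPAT was not called, with log2 fold changes of 0.10 ± 0.07 SE, 0.07 ± 0.08 and 0.00 ± 0.07. Of 21 measured genes for histone transcription and pre-mRNA processing, 3 were higher and 5 lower under dexamethasone, 1 and 5 under RU486, and 1 and 5 in vehicle (2 and 7 without B). That is 38.1% of the list under dexamethasone and 28.6% under RU486 and in vehicle, the last being near the share of all probe sets. ZNF473, a zinc finger protein of the processing machinery, was lower by 0.71 to 0.93, and CCNE1, the cyclin E1 gene, by 0.41 to 0.51, while CSTF2, a cleavage stimulation factor subunit gene, was 0.31 to 0.37 higher.

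Under dexamethasone 4 of 31 S phase genes were called higher in GRα cells and 11 lower, against 3 and 11 under RU486, and 3 and 13 in vehicle (4 and 14 without B). These are 48.4%, 45.2% and 51.6% of the list, and the list medians were −0.10, −0.10 and −0.13. The DNA ligase gene LIG1 (−0.62 ± 0.06 SE) and the replication checkpoint gene CLSPN (−0.51 ± 0.08) were lower under dexamethasone, and PCNA, the sliding clamp gene (0.47 ± 0.08), and CDC45 (0.44 ± 0.06) were higher. Of 20 chaperone genes 3 were higher and 2 lower under dexamethasone (25% of the list, near the 26.4% of all probe sets), the lower ones being CHAF1B (−0.75 ± 0.06), a subunit of the CAF-1 complex that deposits H3 and H4, and ASF1B (−0.61 ± 0.10). Of 12 replication-independent histone genes 2 were higher and 2 lower under dexamethasone (33.3% of the list), with H2AZ2 higher (0.36 ± 0.06) and H3-3B lower (−0.29 ± 0.08). Of the 211 probe sets for RNAs without poly(A), 15 were higher and 63 lower under dexamethasone, where 12.8% of all probe sets were higher and 13.6% lower. The part of S phase share or of RNA without poly(A) in the histone differences was not tested.

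Dexamethasone against vehicle asks how the agonist acts within 6 h. In GRα cells 0 of 78 histone probe sets were called by limma, where 1.46% of all probe sets were called. The 78 had a median log2 fold change of −0.26, and 73 were below 0, as were 52.5% of all probe sets. Of the 78, 24 had an unadjusted p under 0.05 (30.8%, against 15% of all probe sets). Their lowest adjusted p was 0.146, for H2AC6. Without replicate B the median was −0.06, 60 were below 0 and 0 were called, where 0.974% of all probe sets were called, so the size of the shift rested on that vehicle array. H2AC6 had log2 values of 8.09, 8.30 and 8.06 with dexamethasone, against 8.34, 8.67 and 8.34 with vehicle in GRα cells, a difference of −0.30 ± 0.10 SE and of −0.19 without B. This gene is 1 of 14 of the 78 with every dexamethasone array below every vehicle array (15.4% of all probe sets were free of overlap). Leaving out vehicle replicate C instead gave 3 calls, all lower with dexamethasone, in H4C16 (−0.35), H2BC10 (−0.72) and the probe set of H2BC12, H2BC12L, H2BC17 and H2BC5 (−0.62). They are named after their values were seen, and the 2 vehicle arrays then left include B.

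In control cells dexamethasone gave 0 of 78 calls by limma, where 0.0926% of all probe sets were called. Of the 78, 0 had an unadjusted p under 0.05, against 4.33% of all probe sets. Without GRα vehicle B, which enters only through the spread, 0 were called as well, where 0.172% of all probe sets were called. The median was 0.00, with log2 fold changes between −0.19 and 0.16. H3C11 had 9.47, 9.60 and 9.60 with dexamethasone, against 9.69, 9.55 and 9.38 with vehicle in control cells, a difference of 0.02 with a 95% interval of −0.45 to 0.49. In GRα cells the H3C11 difference was −0.45 (−0.93 to 0.02), or −0.06 without B. A direct test of the difference between lines in dexamethasone effect called 0 of 78 by limma, where 0.0412% of all probe sets were called. An unadjusted p under 0.05 was found for 5 of the 78 (6.41%), against 7.32% of all probe sets. The median of that difference was −0.26 with B and −0.05 without it, where 0.0446% of all probe sets and again 0 of the 78 were called.

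RU486 against vehicle called 0 of 78 histone probe sets in GRα cells by limma, where 0% of all probe sets were called. Without replicate B 0 of the 78 were called as well. With all arrays an unadjusted p under 0.05 was found for 1 of the 78 (1.28%), against 9.21% of all probe sets. The median of −0.13 turned to 0.06 without replicate B. Of the 78, 67 were below 0 with B, where 50.8% of all probe sets were, and 22 without B. H4C16, the gene outside the clusters, had the lowest unadjusted p of the members, with 4.03 and 3.95 with RU486 and 4.46, 4.51 and 4.22 with vehicle in GRα cells (−0.41 ± 0.10 SE, limma adjusted p = 0.2341). Its arrays did not overlap. In control cells RU486 called 0 of 78 by limma, where 0% of all probe sets were called. There the median was −0.10, and 66 of 78 were below 0, as were 49.4% of all probe sets. An unadjusted p under 0.05 was found for 5 of the 78 (6.41%), against 3.77% of all probe sets. The median was −0.03 without control RU486 replicate B, which had a median shift of −0.168 against its group, and −0.05 without control vehicle replicate A. The difference between lines in the RU486 effect called 0 of 78 by limma, where 0% of all probe sets were called, with a median of −0.05 including GRα vehicle B and 0.15 without it. Without B, 0 of the 78 were called in each of these as well.

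Dexamethasone and RU486, both steroids that bind the glucocorticoid receptor, were compared at the same dose and time in each line, which makes 2 pairs. No vehicle array enters these differences. In GRα cells 0 of 78 histone probe sets were called by limma, where 0.497% of all probe sets were called. An unadjusted p under 0.05 was found for 2 of the 78 (2.56%), against 8.08% of all probe sets. Without GRα vehicle B in the estimate of spread 0 were called, where 0.803% of all probe sets were called. The median was −0.12 and 65 of the 78 had lower values with dexamethasone, as did 51% of all probe sets. For 30 of the 78 every dexamethasone array was below both RU486 arrays, and for 2 above, where 25.3% of all probe sets were free of overlap. H2BC12 had the lowest unadjusted p, with 10.34, 10.25 and 9.98 with dexamethasone, against 10.32 and 10.58 with RU486 in GRα cells. Its difference was −0.26 (95% interval −0.48 to −0.04, limma adjusted p = 0.4887), and the arrays overlapped. For H3C11 the difference was −0.24 (−0.77 to 0.28).

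In control cells the histone values leaned the other way. Dexamethasone against RU486 gave 0 of 78 calls by limma, where 0.189% of all probe sets were called. An unadjusted p under 0.05 was found for 2 of the 78 (2.56%), against 5.1% of all probe sets. With GRα vehicle B left out of the estimate of spread 0 were called, where 0.34% of all probe sets were called. The median was 0.09, and 68 of the 78 had higher values with dexamethasone, while 50.8% of all probe sets had lower values. Without control RU486 replicate B the median was 0.05. For H3C11 the difference was 0.18 (95% interval −0.29 to 0.66), and for H1-4, a main linker histone gene, it was 0.05 (−0.21 to 0.30), against −0.06 (−0.35 to 0.22) in GRα cells. These intervals leave room for modest differences between the compounds, so the data do not show that they act alike on histone RNA.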

How the data were processed

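RNA was measured in 17 of 18 described samples on whole-transcript arrays. The authors deposited 1 table of log2 values made with RMA (background correction, quantile normalization and probe set summary), and they also used limma, per the submitters' processing notes. For neither tool nor the genome is a version given in the sources used here. Forcing arrays to 1 distribution hides a shift shared by most RNAs. Deposited log2 values ran from 2.07 to 14.15, with array medians of 6.284 to 6.347, and the number of arrays limits the precision. Symbols came from the platform annotation, updated through RefSeq, which matched 19429 of 19460 probe sets with 1 symbol. Another 1754 had several symbols and 7939 none.

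limma 3.58.1 (R 4.3.3) was fitted over all 29153 probe sets and 17 arrays with a mean per group, 11 residual and 4.74 prior degrees of freedom and 11 contrasts. Tests were two-sided, with Benjamini-Hochberg adjustment over all probe sets. Errors are SE from this fit. Groups came from the labels. The labels do not say whether replicates were separate cultures, so p-values measure the spread between samples, which may be partly technical. The members, gene lists and rule for named genes were chosen with earlier results of these data known. The rule named up to 10 called probe sets each way per comparison, the member with the highest mean in each family, H3C11, SLBP, NPAT and up to 4 called genes of each list. Lists had 21, 12, 20, 31 and 211 measured entries. Alternatives were other normalization, filters, thresholds, weights, eBayes options, a replicate block and leaving out arrays. The fit was tested on simulated data. Same-letter arrays of different groups correlated at −0.21 to 0.28 in their deviations (40 pairs), so letters were not taken as pairs.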

Additional observations from a re-analysis of the deposited data

How the results depend on the processing

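The counts of histone probe sets called between lines were 23 in vehicle, 33 under dexamethasone and 22 under RU486. At an adjusted p under 0.01 they were 14, 18 and 14. Fitting only the 2 groups compared gave 14 in vehicle, where the calls of H1-3, H2AC11, H2AC16, H3C8, H3C10, H4C3 and H4C9 were among those lost. Counts under the remaining alternatives that kept all arrays were within 1.5 times these. Leaving out 1 array at a time gave 17 to 47 calls in vehicle (47 without GRα vehicle B), 21 to 47 under dexamethasone (21 without GRα dexamethasone C, 47 without GRα vehicle B) and 13 to 32 under RU486. The 13 and 14 came without GRα RU486 B and C, where the lone array left is assumed to vary like the other groups. Dexamethasone against vehicle in GRα cells gave 0 to 3, with 3 calls without GRα vehicle C, and the other ligand and difference comparisons gave 0 in every fit run. The causes of these changes were not tested, beyond the stricter threshold and the fewer arrays. With the replicate letter as a block the line counts were 23, 34 and 21, and the letters share only a name. H3C11, H1-5, H2BC6, H1-2 and H2BC11 were called in each fit without 1 of the compared arrays in each treatment. No called member changed direction under any alternative run. Signals of dim probe sets such as H4C16 and H2BC1 were not tested for detection above background.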

Other observations

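Some replication-dependent histone genes are known in other cells to make polyadenylated transcripts beside the stem-loop form. A list of 8 of them was drawn up after the values were seen, so it carries no test. A contrast with the other members may come from that choice alone. The list holds H1-2, H2AC6, H2BC4, H2BC5, H2BC11, H2BC12, H2BC21 and H4C8, each by the probe set that lists it alone. Shared probe sets that list these genes beside others are counted among the other members. One of them, for H2BC12, H2BC12L, H2BC17 and H2BC5, was called lower under dexamethasone (−0.79) and RU486 (−0.54). Those that list H2BC21 beside other genes had −0.12 and −0.23 under dexamethasone and were not called. Of all probe sets 12.8% were called higher and 13.6% lower under dexamethasone, and 10.5% and 12% under RU486. In vehicle these shares were 11.9% and 14.3%, and without GRα vehicle replicate B 27.1% were called in either direction. Under dexamethasone 5 of the 8 were called higher and 0 lower in GRα cells by limma, with a median log2 fold change of 0.27, while of the other 66 distinct histone measurements 2 were higher and 24 lower, with a median of −0.36. Under RU486 6 of the 8 were higher and 0 lower (median 0.49), against 8 higher and 7 lower of the 66 (−0.12). In vehicle 7 of the 8 were higher and 0 lower (0.44), against 8 higher and 7 lower of the 66 (−0.08). In vehicle without GRα vehicle replicate B 6 of the 8 were higher and 0 lower (0.39), against 5 higher and 34 lower of the 66 (−0.30). The excess of that replicate over the mean of A and C had a median of 0.27 over the 8 and 0.60 over the 66. Whether these probe sets measured polyadenylated or stem-loop transcripts was not tested.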
